A study of Mus musculus with 8 samples.

Results

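The 42 genes described here encode the machinery that brings secretory proteins into the endoplasmic reticulum (ER), cuts off their signal peptides, attaches N-linked glycans and folds them. They were taken as a list of symbols, all 42 of which were among the 24013 symbols of an FPKM table of 8 RNA sequencing libraries, and all 42 passed a filter that dropped genes reaching 1 FPKM in fewer than 2 libraries and left 11190 genes. They fall into 5 classes by role: 7 genes of signal recognition, 9 of the translocon, 5 of the signal peptidase, 8 of the oligosaccharyltransferase and 13 of protein folding. FPKM counts fragments per transcript length and per size of the library.

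The cells were sorted from intestinal epithelium of mice carrying Lyz1CreER and R26R-tdT, aged 8 to 14 weeks, on a mixed C57/BL6 and 129 background, all of which had been given 1 dose of 10 mg tamoxifen. Cre is driven here from Lyz1, the lysozyme gene of Paneth cells, so that tamoxifen marks cells expressing it, and their later descendants, with the red protein tdTomato. Marked epithelial cells (EpCAM positive, CD45 negative) were sorted by the surface protein CD24 into CD24+ cells, which the labels call Paneth cells, and CD24− cells, which they call derivatives. The 8 libraries form 3 groups: non-irradiated CD24+ (n = 2), irradiated CD24+ (n = 3) and irradiated CD24− (n = 3), the irradiated mice having been taken 5 days after radiation. The 8 libraries include no non-irradiated CD24− group.

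Paneth cells are professional secretory cells of the crypt base, filled with rough ER and with granules of defensins and lysozyme. A nascent secretory protein is recognised by the signal recognition particle, handed to its receptor on the ER membrane and threaded through the Sec61 channel. Its signal peptide is removed by the signal peptidase, glycans are added to asparagines by the oligosaccharyltransferase, and chaperones and disulfide isomerases fold it. When unfolded protein builds up, the sensors ATF6, IRE1 and PERK raise the transcription of many folding genes, in part through a promoter motif called the ER stress response element (ERSE).

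The promoters of 7 folding genes are shown because they hold this motif. RefSeq windows on GRCm38.p6, from 250 bases before to 50 after a start site, were found for 33 of the 42 genes; Srp19, Srp68, Sec61a1, Ssr2, Spcs3, Sec11c, Ostc, Tusc3 and Hyou1 were not among them. The ERSE was searched on both strands as CCAAT, any 9 bases and CCACG. It was found in 7 of the 12 folding genes with a window and in 0 of the 21 other members with one. In the whole promoter table, these 7 included, it was found in 37 of 27025 genes (0.137%). The motif is one known from folding genes, as said above, so these shares are a description and not a test. Among other genes of the pathway, listed further on, it was found in 2 of 74 with a window (Alg12 and Creld2), and in 1 of the 26 other folding enzymes and chaperones. In the stretches below, written 5′ to 3′ along each gene's own strand, capitals mark the paired boxes of each match, which read CGTGG and ATTGG where the match lies on the opposite strand. They are from Hspa5 (chr2:34772005-34772063, plus strand), Hsp90b1 (chr10:86705513-86705676, minus strand, with 2 matches), Dnajc3 (chr14:118937807-118937865, plus), Calr (chr8:84847055-84847113, minus), Canx (chr11:50325780-50325838, minus), Pdia6 (chr12:17266471-17266529, plus) and Ero1lb (chr13:12565662-12565720, plus; named Ero1b in RefSeq).
Hspa5: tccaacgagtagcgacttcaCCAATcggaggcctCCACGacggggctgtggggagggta
Hsp90b1: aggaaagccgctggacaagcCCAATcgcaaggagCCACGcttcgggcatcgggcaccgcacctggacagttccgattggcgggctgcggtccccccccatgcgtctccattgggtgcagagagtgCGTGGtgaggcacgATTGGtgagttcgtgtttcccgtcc
Dnajc3: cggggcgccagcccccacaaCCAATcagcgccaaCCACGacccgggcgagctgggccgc
Calr: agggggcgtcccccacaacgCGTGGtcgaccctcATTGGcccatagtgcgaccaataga
Canx: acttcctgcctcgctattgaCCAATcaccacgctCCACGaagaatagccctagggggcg
Pdia6: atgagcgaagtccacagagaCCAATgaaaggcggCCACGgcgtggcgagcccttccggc
Ero1lb: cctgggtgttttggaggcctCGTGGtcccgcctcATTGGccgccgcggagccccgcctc
All of these stretches lie upstream of the start site, between positions −232 and −27 relative to it. The related ERSE-II (ATTGG, any base and CCACG, whose last box it shares with the ERSE) was found in Dnajb11 only, 8 to 18 bases after the start, against 12 genes of the table (0.0444%). The unfolded protein response element (TGACG followed by TGG, which can overlap either motif) was found in 0 of the 33 members and in 193 genes of the table (0.714%). A match is a string in a window, not evidence of binding in these cells, and a missing match says only that these letters are not in the window.

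Levels were high in all 3 groups. P4hb, which encodes protein disulfide isomerase, had the highest level per transcript length in every library, from 594 to 1679 FPKM, and Ero1lb, an oxidase that recharges disulfide isomerases, was the lowest or among the lowest, from 4.58 to 12.9 FPKM. The median member stood at the 96.1 and 94.9 percentile of the 11190 genes in the non-irradiated CD24+ libraries, at 95.4, 95.3 and 94.5 in the irradiated CD24+ libraries, and at 89.9, 89.0 and 87.4 in the CD24− libraries. This rank does not depend on how libraries are scaled against each other, and the CD24− libraries all lay below the CD24+ libraries. The rank of signal recognition genes was the one that differed most between the gates, with a median at 89.9 to 91.0 in irradiated CD24+ libraries and 79.4 to 82.5 in CD24− libraries. For the folding genes the same medians were 95.1 to 95.8 and 92.6 to 93.4. No test was made on ranks, which also move with the levels of all other genes.

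**Figure D1:**
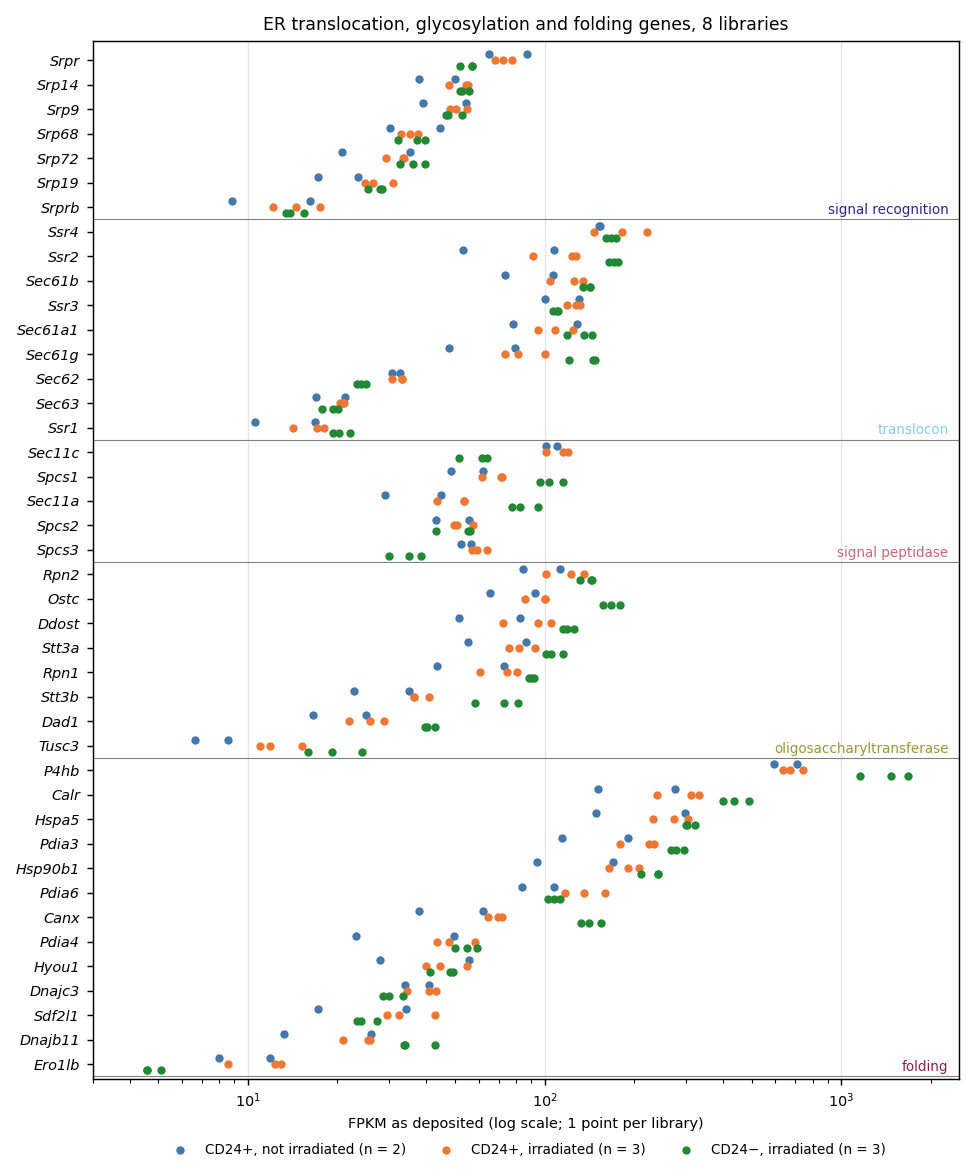
FPKM of each of the 42 genes (rows, italic) in the 8 libraries on a log scale, 1 point per library, coloured by group and ordered within role class by mean level. CD24− points lie to the right of the irradiated CD24+ points for P4hb, Canx, Stt3b and Sec11a, and to the left for Sec11c, Spcs3 and Ero1lb.

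**Figure D2:**
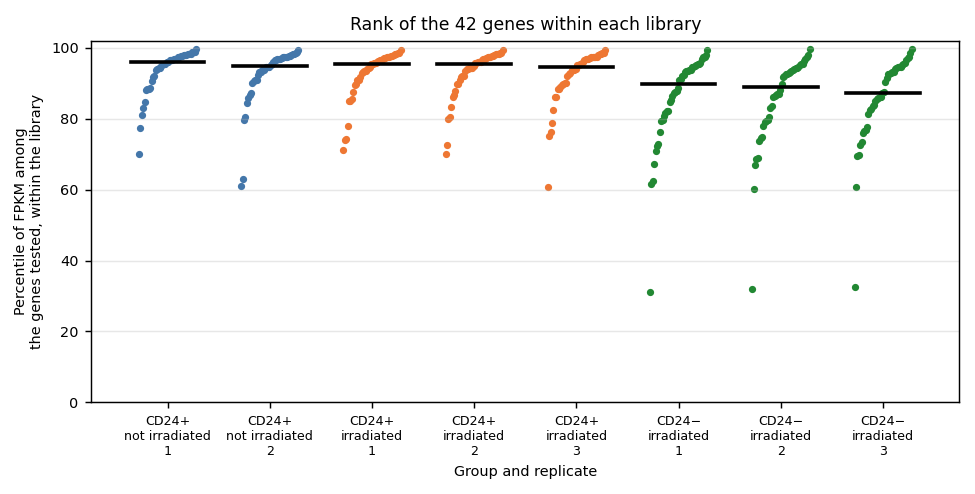
Percentile of each of the 42 genes among the 11190 genes tested (vertical axis) within each of the 8 libraries (horizontal axis), genes sorted by percentile from left to right in a library and the black line at their median. Medians lie between 94.5 and 96.1 in the CD24+ libraries and between 87.4 and 89.9 in the CD24− libraries, where the lowest point is Ero1lb.

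How libraries are scaled decides the direction of many differences between the gates. Differences are therefore given on the deposited values and after median-of-ratios scaling, which divides each library by 1 factor. Between these 2 scales 14 of the 42 members changed sign. The factors were 0.528 and 0.867 for the non-irradiated CD24+ libraries, 0.859 to 0.993 for the irradiated CD24+ libraries and 1.33 to 1.48 for the CD24− libraries. A set of 26 Paneth cell products, mostly defensins, took 54.1% to 63.9% of all FPKM in CD24+ libraries and 3.51% to 11.1% in CD24− libraries. The 42 members summed to 3562, 4437 and 4117 FPKM in irradiated CD24+ libraries and to 5127, 5428 and 5740 in CD24− libraries, with no overlap. After scaling the sums were 4146, 4468 and 4264 against 3472, 3972 and 4311, and the groups overlapped. As a share of FPKM without the Paneth products, the members made up 0.585% to 0.728% of irradiated CD24+ and 0.980% to 1.10% of CD24− libraries. In bulk samples, fewer cells of a type and less RNA per cell cannot be told apart.

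In irradiated cells, CD24− against CD24+, few members of the machinery were called higher as deposited and many were called lower after scaling. As deposited 26 of the 42 differences were above 0, called or not. As deposited, limma on log2(FPKM + 1) called 9 of the 42 genes higher and 3 lower in CD24− cells at an adjusted p under 0.05, where 48.6% of all genes tested were called higher and 7.27% lower. The 9 are 21.4% of the members. Their median log2 difference was 0.20 against 0.51 over all genes, and 30 of the 42 lay below that median. After scaling, 2 members were called higher and 21 lower, where 32.4% of all genes were called higher and 24.4% lower, and the medians were −0.37 for the members and 0.04 over all genes. Canx and Stt3b were higher and Ero1lb, Sec11c and Spcs3 lower on both scales, but not under the most extreme scalings: rescaled to a fixed sum (TPM), which called 39 members (92.9%) and 90.3% of all genes higher, and 0 members and 2.06% of all genes lower, Ero1lb, Sec11c and Spcs3 were at 0.036, 0.34 and 0.45 and not called. After quantile normalization, which called 0 members and 25.2% of all genes higher, and 37 members (88.1%) and 30.5% of all genes lower, Canx and Stt3b were at −0.24 and −0.25 and not called. Between the first pair of scales, 7 members were higher as deposited only and 18 lower after scaling only. The libraries of the gates did not overlap for 18 members higher and 10 lower as deposited (59.1% and 9.31% of all genes), and for 5 higher and 28 lower after scaling (37% and 30%). Leaving out irradiated CD24+ replicate 1 or 2 or CD24− replicate 2 left 2, 5 and 3 members called higher as deposited. Over all genes 4355 of 11169, 4738 of 11131 and 4714 of 11103 were then called higher. With replicate number as a block in the 6 irradiated libraries, 13 members were higher and 7 lower as deposited, where 6196 and 979 of 11190 genes were. After scaling 1 was higher and 20 lower, where 3756 and 2816 genes were. The block treats libraries of the same number as pairs, which the labels do not state.

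**Figure D3:**
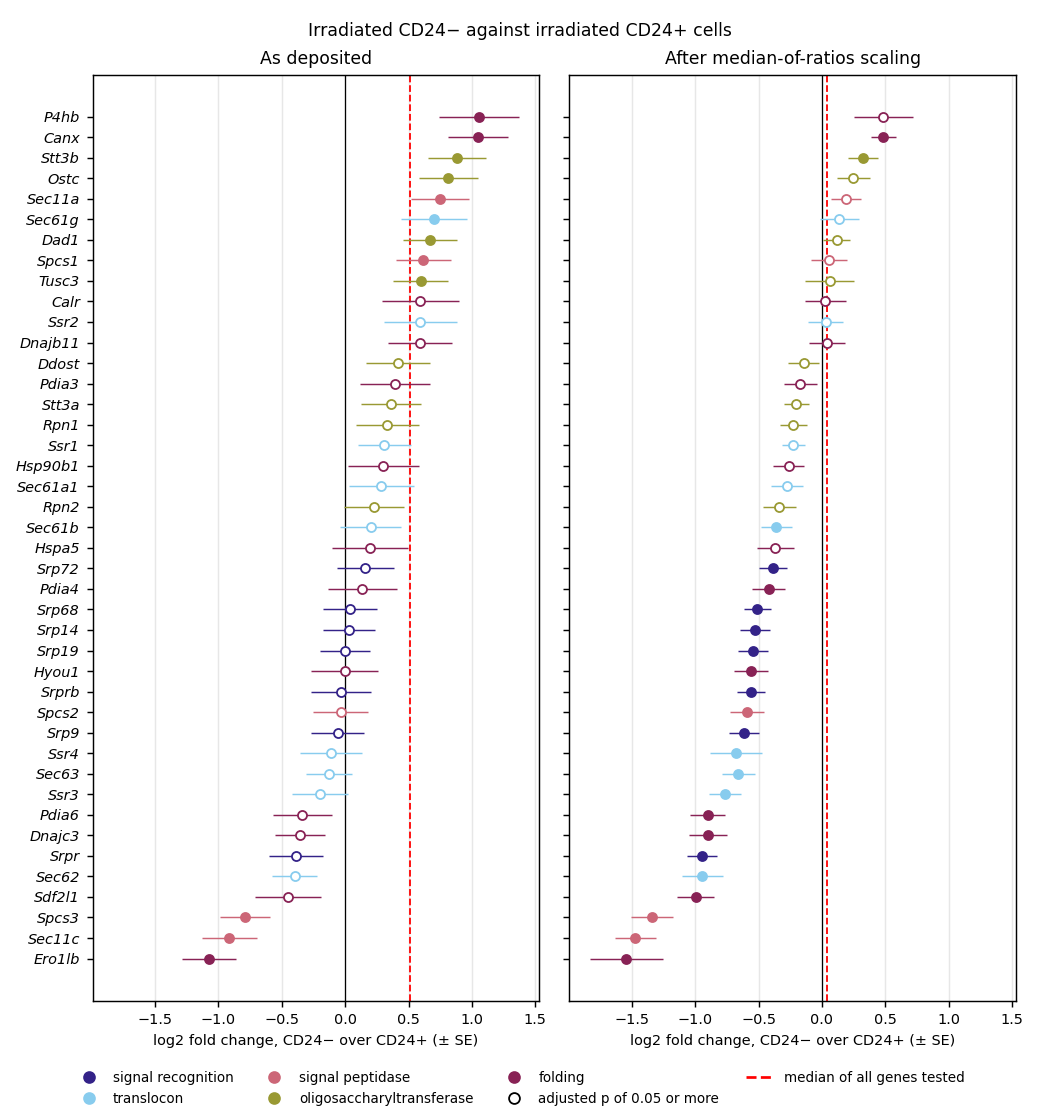
Log2 fold change of log2(FPKM + 1) between irradiated CD24− (n = 3) and irradiated CD24+ (n = 3) cells for each of the 42 genes, as deposited (left) and after median-of-ratios scaling (right), with bars for the limma SE, filled points for an adjusted p under 0.05 and a dashed line at the median of all genes. Ero1lb, Sec11c and Spcs3 sit at the bottom and P4hb, Canx and Stt3b at the top of both panels, while the whole set shifts left after scaling.

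The signal recognition genes, which encode the particle that binds signal peptides and its membrane receptor, gave no call as deposited and were lower throughout after scaling. None of the 7 was called as deposited (smallest adjusted p = 0.142 in limma; 0 of 7 at an unadjusted p under 0.05), with a median difference of −0.00 on the log2 scale, and all 7 lay below the median of all genes. Of all genes, 48.6% were called higher and 7.27% lower as deposited. After scaling, all 7 were called lower, where 24.4% of all genes were, with differences from −0.95 to −0.39 and a median of −0.55. Srpr, the receptor subunit that docks the particle, was at 68.2, 77.8 and 72.6 FPKM in irradiated CD24+ cells and at 57.2, 52.0 and 57.1 in CD24− cells. The CD24− libraries were all lower, by −0.39 (SE 0.21) on the log2 scale with an adjusted p of 0.142 in limma. After scaling the same libraries stood at 79.3, 78.4 and 75.2 against 38.7, 38.0 and 42.9, a difference of −0.95 (SE 0.12; limma adjusted p = 0.000268). Srp72, which encodes one of the large proteins of the particle, was at 29.3, 33.4 and 33.7 against 36, 32.5 and 39.5 FPKM as deposited. The groups overlapped, and the difference was 0.16 (SE 0.23); after scaling it was −0.39 (SE 0.11; limma adjusted p = 0.0163), and without CD24− replicate 2 it was no longer called. Srp19, an assembly protein of the particle, stood at 24.7, 26.3 and 30.8 against 28.3, 25.4 and 27.9 FPKM, and Srp68 at 33, 37.5 and 35.3 against 39.6, 32.2 and 37.3. For both the gates overlapped as deposited and did not overlap after scaling. The scaled differences were −0.55 (SE 0.12) for Srp19 and −0.51 (SE 0.11) for Srp68.

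The translocon class holds the Sec61 channel, its helpers Sec62 and Sec63, and the TRAP complex (Ssr1 to Ssr4) that assists signal peptides at the channel, and its members split. As deposited 1 of 9 (11.1%) was called higher and 0 lower, against 48.6% and 7.27% of all genes, and the median difference was 0.20. After scaling 0 were higher and 5 (55.6%) lower, against 32.4% and 24.4% of all genes, and the median was −0.36. Sec61g, the small gamma subunit of the channel, was at 73.4, 81.5 and 101 FPKM in irradiated CD24+ cells and 121, 145 and 148 in CD24− cells. The CD24− libraries were all higher, by 0.70 (SE 0.26; limma adjusted p = 0.0378) on the log2 scale, but the scaled groups overlapped and the difference was 0.14 (SE 0.15). The Sec61g call as deposited was lost when irradiated CD24+ replicate 1 or 2, or any 1 CD24− library, was left out. Sec62, which helps post-translational import, was at 33, 33.1 and 30.6 against 24.2, 25.1 and 23.3 FPKM. All CD24− libraries lay below, by −0.40 (SE 0.18; limma adjusted p = 0.0800), and after scaling by −0.94 (SE 0.16; limma adjusted p = 0.00148).

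Sec61b, the beta subunit of the channel, was at 105, 135 and 126 against 135, 143 and 142 FPKM, with overlapping groups and a difference of 0.20 (SE 0.24). After scaling it was −0.36 (SE 0.12; limma adjusted p = 0.0339), a call that was lost without any 1 of the irradiated CD24+ libraries or without CD24− replicate 1 or 2. Sec61a1, the pore-forming subunit, differed by 0.28 (SE 0.26) as deposited and −0.28 (SE 0.13) after scaling and was not called on either scale. The TRAP genes did not keep a common order. Ssr4 was at 147, 222 and 182 against 161, 175 and 167 FPKM, and Ssr2 at 91.5, 128 and 124 against 171, 177 and 165. Ssr4 overlapped between gates as deposited (−0.11, SE 0.25) and was called lower after scaling (−0.68, SE 0.20; limma adjusted p = 0.0207), though not without irradiated CD24+ replicate 2 or CD24− replicate 1. Ssr2 was higher in every CD24− library as deposited, by 0.59 (SE 0.29; limma adjusted p = 0.104), and its scaled difference was 0.03 (SE 0.14). Ssr3 and Sec63 were called lower after scaling only, at −0.76 (SE 0.13) and −0.66 (SE 0.13), against −0.20 (SE 0.22) and −0.12 (SE 0.18) as deposited.

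The signal peptidase genes split in direction as deposited, and after scaling only the lower calls were left. As deposited, 2 of 5 (40%) were called higher (Sec11a, Spcs1) and 2 (40%) lower (Sec11c, Spcs3), against 48.6% and 7.27% of all genes. After scaling 3 (60%) were lower and 0 higher, against 24.4% and 32.4% of all genes. Sec11a and Sec11c are alternative catalytic subunits of the peptidase. Sec11c was at 101, 115 and 120 FPKM in irradiated CD24+ cells and 64.2, 61.7 and 51.6 in CD24− cells. All CD24− libraries were lower, by −0.91 (SE 0.22; limma adjusted p = 0.00394) as deposited and −1.47 (SE 0.16; limma adjusted p = 0.000143) after scaling. Sec11a was at 43.5, 53.6 and 53.6 FPKM against 82.6, 95.0 and 77.4, that is, higher in all CD24− libraries. Its difference was 0.75 (SE 0.23; limma adjusted p = 0.0173) as deposited and 0.19 (SE 0.12; limma adjusted p = 0.200) after scaling, and the first call was lost without irradiated CD24+ replicate 1 or CD24− replicate 2. Spcs3, an accessory subunit needed for activity, was at 59.0, 64.0 and 57.0 against 38.4, 35.0 and 30.0 FPKM. It was lower in all CD24− libraries, by −0.79 (SE 0.20; limma adjusted p = 0.00588) as deposited and −1.34 (SE 0.16; limma adjusted p = 0.000241) after scaling. Spcs1, another accessory subunit, was at 61.7, 71.6 and 71.1 against 96.6, 115 and 103 FPKM. Its difference of 0.62 (SE 0.22; limma adjusted p = 0.0302) as deposited was called in 2 of 8 fits that left out a library, those without a non-irradiated one, and was 0.05 (SE 0.14) after scaling. The calls of Sec11c and Spcs3 held in all 8 such fits on both scales.

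The oligosaccharyltransferase genes had the highest class median, 0.51 as deposited, equal to that of all genes, and −0.04 after scaling. As deposited 4 of 8 (50%) were called higher (Stt3b, Ostc, Dad1 and Tusc3) and 0 lower, against 48.6% and 7.27% of all genes. After scaling 1 (12.5%) was higher and 0 lower, against 32.4% and 24.4% of all genes. This class was the only one without a lower call on that scale. Stt3a and Stt3b are alternative catalytic subunits, of which Stt3a works at the translocon and Stt3b also glycosylates sites that were missed. Stt3b was at 36.4, 40.6 and 36.4 FPKM in irradiated CD24+ cells and 81.5, 73.2 and 58.5 in CD24− cells. All CD24− libraries were higher, by 0.88 (SE 0.23; limma adjusted p = 0.00692) as deposited and 0.32 (SE 0.12; limma adjusted p = 0.0477) after scaling. The deposited call held in 8 of 8 fits that left out a library, and the scaled one only in the fit without CD24− replicate 3. Stt3a was not called on either scale, with 0.36 (SE 0.24) and −0.20 (SE 0.10).

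Of the other subunits 3 were called as deposited and 0 after scaling. Tusc3, an oxidoreductase subunit of the Stt3b form, was at 11.0, 11.9 and 15.3 against 16.0, 19.2 and 24.3 FPKM. It was higher by 0.59 (SE 0.22; limma adjusted p = 0.0356) as deposited, a call lost without irradiated CD24+ replicate 1 or 2 or CD24− replicate 2 or 3, and its scaled groups overlapped at 0.06 (SE 0.19). Ostc, a small accessory subunit, was at 85.9, 100 and 100 against 157, 167 and 180 FPKM, with 0.81 (SE 0.23; limma adjusted p = 0.0116) as deposited, not called without irradiated CD24+ replicate 1, and 0.25 (SE 0.13) after scaling. Dad1 was at 21.9, 28.7 and 25.8 against 39.6, 42.7 and 40.2 FPKM, with 0.67 (SE 0.21; limma adjusted p = 0.0198) and 0.12 (SE 0.11). Its call as deposited was lost without irradiated CD24+ replicate 1 or 3 or CD24− replicate 1 or 2. Rpn2, the subunit with the highest mean level, was at 101, 136 and 123 against 144, 132 and 143 FPKM. The groups overlapped, with 0.23 (SE 0.24) as deposited and −0.34 (SE 0.13; limma adjusted p = 0.0550) after scaling.

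The folding genes ran from the largest rise to the largest fall of the whole set. As deposited 2 of 13 (15.4%) were called higher (P4hb and Canx) and 1 (7.69%) lower (Ero1lb), against 48.6% and 7.27% of all genes. After scaling Canx was higher (7.69%) and 6 (46.2%) lower (Hyou1, Sdf2l1, Dnajc3, Pdia4, Pdia6 and Ero1lb), against 32.4% and 24.4% of all genes. The class median was 0.20 as deposited and −0.37 after scaling. Canx encodes calnexin, the membrane-bound lectin that holds newly glycosylated proteins. It was at 64.3, 71.7 and 69.5 FPKM in irradiated CD24+ cells and 155, 141 and 133 in CD24− cells, higher in every CD24− library. The difference was 1.05 (SE 0.24; limma adjusted p = 0.00326) as deposited and 0.49 (SE 0.10; limma adjusted p = 0.00339) after scaling, and it was called in 8 of 8 fits that left out a library on both scales. Its soluble counterpart Calr was at 239, 332 and 313 against 401, 436 and 490 FPKM, again without overlap, but was not called (0.59, SE 0.30, limma adjusted p = 0.119; 0.03, SE 0.16, after scaling).

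P4hb, which also serves as a subunit of the lipid transfer protein that loads lipoproteins in enterocytes, was at 636, 746 and 672 FPKM against 1157, 1471 and 1679. The CD24− libraries were all higher, by 1.05 (SE 0.32; limma adjusted p = 0.0147) as deposited. The deposited call for P4hb was lost without any 1 irradiated CD24+ library or without CD24− replicate 2, and after scaling the difference was 0.49 (SE 0.23; limma adjusted p = 0.107), with no overlap between the gates. Mttp, the other subunit of that transfer protein, was at 41.8, 32.0 and 40.1 FPKM in irradiated CD24+ cells and at 602, 755 and 1029 in CD24− cells. Ero1lb was at 12.4, 12.9 and 8.58 FPKM against 5.11, 4.58 and 4.58. It was lower in all CD24− libraries, by −1.07 (SE 0.21; limma adjusted p = 0.00128) as deposited and −1.54 (SE 0.29; limma adjusted p = 0.00233) after scaling, and called in all 8 fits that left out a library on both scales.

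Hspa5, which encodes the Hsp70 chaperone BiP, was at 231, 305 and 272 FPKM against 301, 300 and 321, with overlapping groups and 0.20 (SE 0.30) as deposited and −0.37 (SE 0.15; limma adjusted p = 0.0569) after scaling. Hsp90b1, its Hsp90 partner GRP94, was at 164, 208 and 191 against 242, 211 and 241 FPKM, with 0.30 (SE 0.28) and −0.26 (SE 0.12), and was not called. Cofactors of BiP differed among themselves. Dnajc3 and Sdf2l1 were called lower after scaling, at −0.90 (SE 0.15) and −1.0 (SE 0.15), against −0.35 (SE 0.20) and −0.45 (SE 0.26) as deposited, while Dnajb11 differed by 0.59 (SE 0.25; limma adjusted p = 0.0678) as deposited and 0.04 (SE 0.14) after scaling. The 7 genes with an ERSE shown above ran from near the top of the range to its bottom. As deposited, Canx was the highest after P4hb, which had no ERSE in its window, and Ero1lb was the lowest. Hspa5, Hsp90b1 and Calr were not called on either scale, and Dnajc3 and Pdia6 were called lower after scaling only.

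The order of the 42 differences was compared over 5 scalings (as deposited, median-of-ratios, rescaling to a fixed sum with and without the Paneth products, and quantile normalization). All but quantile normalization divide a library by 1 factor and so shift the members nearly alike, which leaves quantile normalization as the one that could reorder them. P4hb was always among the top 2 of the 42 differences, Canx among the top 3 and Stt3b among the top 4. Dad1 and Sec11a were always among the top 7. Sec11c was always among the bottom 2, and Spcs3 and Ero1lb among the bottom 3. Hspa5 lay within 0.02 of the members' median in all 5 scalings.

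Ratios within a library do not change with any factor per library, and 7 pairs of paralogs or alternative subunits were set side by side as a description. The ratio of Sec11a to Sec11c was 0.287 and 0.407 in non-irradiated CD24+ cells, 0.431, 0.464 and 0.447 in irradiated CD24+ cells, and 1.29, 1.54 and 1.5 in CD24− cells. Sec11c was thus the more abundant catalytic subunit in all 5 CD24+ libraries and Sec11a in all 3 CD24− libraries. The ratio of Stt3b to Stt3a was 0.415 and 0.401, then 0.480, 0.439 and 0.445, then 0.708, 0.696 and 0.578, so that Stt3a was the more abundant subunit throughout. The ratio of the membrane lectin Canx to the soluble Calr was 0.250 and 0.226, then 0.269, 0.216 and 0.222, then 0.387, 0.323 and 0.271. CD24− libraries were higher in each case, the last by a small margin over the highest CD24+ library.

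The oxidases and stress-linked cofactors differed more. The ratio of Ero1l, the widely expressed oxidase, to Ero1lb was 0.635 and 1.70, then 1.09, 0.928 and 1.91, then 4.49, 4.82 and 8.06. Sdf2 to Sdf2l1, a related pair of which the second is an ER stress target, stood at 0.645 and 0.476, then 0.591, 0.448 and 0.634, then 1.95, 2.13 and 1.76. In both pairs every CD24− library was above every CD24+ library. Magt1 to Tusc3, alternative oxidoreductase subunits, ran the other way, at 4.27 and 3.54, then 2.98, 2.94 and 1.90, then 2.25, 1.83 and 1.33, with irradiated groups overlapping. Sec61a2 to Sec61a1 was low throughout, at 0.0141 and 0.0167, then 0.0206 to 0.0261, then 0.0330 to 0.0350. Reads that match both paralogs can be divided between them, which was not tested for these pairs.

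**Figure D4:**
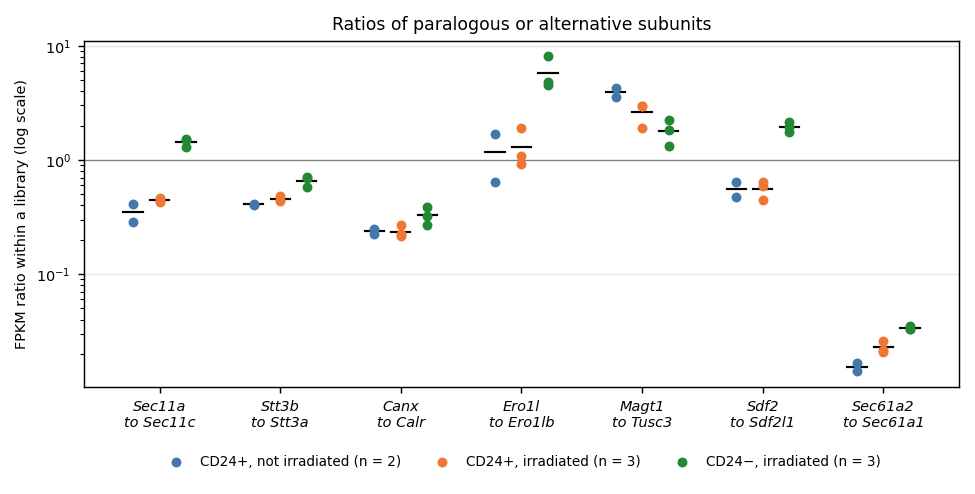
Ratio of FPKM between the members of 7 pairs of paralogous or alternative subunits (horizontal axis) within each library, on a log scale, 1 point per library and a short black line at the group mean (n = 2, 3 and 3). The ratio of Sec11a to Sec11c lies below 1 in all CD24+ libraries and above 1 in all CD24− libraries, as does that of Sdf2 to Sdf2l1.

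Other genes of the same pathway, 84 of which passed the filter out of 92 listed and 90 in the table, also included called genes in both directions. As deposited, 30 (35.7%) were called higher and 6 (7.14%) lower in CD24− than in irradiated CD24+ cells, where 48.6% and 7.27% of all genes were, with a median of 0.29. After scaling 13 (15.5%) were higher and 34 (40.5%) lower, where 32.4% and 24.4% of all genes were, with a median of −0.19. All 6 lower calls as deposited were among the 30 other folding enzymes and chaperones (8 higher, 6 lower). Pdia2, a disulfide isomerase known from the pancreas, was at 14.2, 33.1 and 12.8 FPKM in irradiated CD24+ cells and 1.37, 1.27 and 0.370 in CD24− cells. It fell, with a log2 difference of −3.31 (SE 0.42; limma adjusted p = 7.08e-05) as deposited and −3.61 (SE 0.53) after scaling. Fkbp11, a prolyl isomerase of secretory cells, named after its values were seen, was at 33.6, 54.2 and 42.5 against 9.06, 6.80 and 11.1 FPKM, and fell, with −2.15 (SE 0.25; limma adjusted p = 4.26e-05) as deposited and −2.66 (SE 0.19) after scaling. The other 4, also named after the fact, were Fkbp9, Dnajc10, Sil1 and Dnajc1. Sdf2 rose in this list, from 17.4, 19.1 and 20.4 to 45.4, 51.3 and 47.9 FPKM, by 1.3 (SE 0.20) as deposited and 0.75 (SE 0.11) after scaling.

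As deposited, the remaining lists had higher calls and no lower ones, where 48.6% of all genes were called higher and 7.27% lower. The higher calls made up 42.9% of the targeting and insertion factors and 38.1% of the genes that assemble the dolichol-linked glycan. They made up 57.1% of the trimming and calnexin cycle genes and 20% of the other oligosaccharyltransferase subunits. Among the 21 genes of other targeting and insertion factors 9 were higher; Emc9, a subunit of the ER membrane insertase, rose from 1.95, 2.75 and 1.65 to 12.0, 13.2 and 10.7 FPKM, by 2.07 (SE 0.22; limma adjusted p = 2.36e-05) as deposited and 1.57 (SE 0.14) after scaling. Of the 21 genes that assemble the dolichol-linked glycan 8 were higher, led by the dolichyl pyrophosphate phosphatase Dolpp1, which rose from 6.06, 7.32 and 6.74 to 24.1, 22.4 and 23.0 FPKM (1.65, SE 0.22; scaled 1.12, SE 0.10). Of 7 genes of glycan trimming and the calnexin cycle 4 were higher, led by Prkcsh, the beta subunit of glucosidase II, with 28, 42.4 and 40.6 against 82.8, 79.3 and 99.3 FPKM (1.23, SE 0.25; scaled 0.67, SE 0.15). Of 5 other oligosaccharyltransferase subunits 1 was higher, Ost4, at 0.86 (SE 0.23; limma adjusted p = 0.00853) as deposited and 0.30 (SE 0.12; limma adjusted p = 0.0658) after scaling. After scaling these 4 lists had 6 and 7, 3 and 6, 2 and 3, and 0 and 2 genes called higher and lower. That is 28.6% and 33.3%, 14.3% and 28.6%, 28.6% and 42.9%, and 0% and 40%, against 32.4% and 24.4% of all genes.

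Markers of some other cell types differed between the gates as well. The summed FPKM of 12 enterocyte markers was 769 to 1297 in irradiated CD24+ and 16016 to 35262 in CD24− libraries. That of 8 goblet cell markers, another secretory type, was 8531 to 14286 and 5225 to 10582. Most of the CD24+ sum was Spink4, and the other 7 summed to 1938 to 2328 and 4279 to 8458. Of the 8, Zg16, Fcgbp and Clca3 were higher in all CD24− libraries, Spink4, Spdef and Ramp1 lower, and 2 overlapped. The sum of 12 enteroendocrine markers was 416 to 1563 and 566 to 3926, which overlapped. Among them Cck and Gcg were higher in all CD24− libraries, Ghrl and Sst lower, and 8 overlapped. Of the plasma cell genes, which would mark another strongly secretory cell, Igj was at 0 to 0.0136 FPKM and Cd79a at 0 in all 6 irradiated libraries. In the whole list of 7 plasma cell and other leukocyte genes, 2 were higher in all CD24− libraries, 1 was lower and 4 overlapped. Itgam was at 0.300 to 0.869 FPKM in irradiated CD24+ and 2.39 to 2.91 in CD24− libraries, and Cd3e at 0 to 0.0689 and 0.0999 to 0.362. Lyz2 was lower, at 365 to 509 and 3.43 to 35.9. Ptprc, which encodes CD45, was among those overlapping, at 0.0829 to 0.148 and 0.0232 to 0.197. Whether Lyz2 holds reads of Lyz1, which was lower as well, was not tested. The sum of 18 Paneth markers was 507410 to 558625 in irradiated CD24+ and 16800 to 47504 in CD24− libraries, with 16 lower in all CD24− libraries, Reg3g higher and 1 overlapping. Lyz1 was at 31456 to 36444 FPKM in irradiated CD24+ and 384 to 2576 in CD24− libraries, and Cd24a at 670 to 750 and 37.4 to 117. The sum of 6 markers of crypt base columnar cells, the stem cells beside Paneth cells, was 941 to 1174 and 52.8 to 411, each of the 6 lower in all CD24− libraries. The sum of 10 tuft cell markers was 9.57 to 23.1 and 2.39 to 4.47, with 6 lower in all CD24− libraries and 4 overlapping, and Gnat3 and Il25 were at 0 in all CD24− libraries. Markers of proliferation (7 genes, 147 to 217 and 117 to 217) and of stroma (6 genes, 1.90 to 10.9 and 3.93 to 44.6) overlapped in sum. The part of these cell types in the differences of the 42 genes was not tested.

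Irradiation made no difference that passed the test for any of the 42 members in CD24+ cells. Of the 42 members 0 were called higher or lower in irradiated than in non-irradiated CD24+ cells by limma, as deposited or after scaling, where 0% of all genes were called higher on either scale, and 0% (as deposited) and 0.0268% (scaled) lower. The smallest adjusted p was 0.348 as deposited and 0.324 after scaling; at an unadjusted p under 0.05, 1 member was higher as deposited (Tusc3) and 7 were lower after scaling. The members' median log2 difference was 0.28 as deposited, against 0.32 over all genes, with 40 of 42 above 0; after scaling it was −0.17 against −0.03, with 33 of 42 below 0. One library decides the deposited value, since the 2 non-irradiated libraries were unlike each other: the members summed to 2759 FPKM in replicate 1 and 3955 in replicate 2. Without replicate 1 the median was 0.02, and without replicate 2 it was 0.59 with 25 members called higher, when 5172 of 11156 genes were.

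Class medians ran in nearly the same order on both scales, as 1 factor per library shifts the members nearly alike. As deposited they were 0.48 for folding, 0.32 for the oligosaccharyltransferase, 0.24 for the translocon, 0.23 for signal recognition and 0.14 for the signal peptidase, and after scaling 0.02, −0.14, −0.23, −0.22 and −0.33. Tusc3 had the largest difference as deposited, at 6.64 and 8.6 FPKM in non-irradiated and 11.0, 11.9 and 15.3 in irradiated cells, which did not overlap (0.67, SE 0.24, limma adjusted p = 0.348; scaled 0.25, SE 0.22). Hsp90b1, the folding gene with the largest value, was at 94.6 and 170 against 164, 208 and 191 FPKM (0.56, SE 0.31; scaled 0.09, SE 0.14). Hspa5 was at 149 and 296 against 231, 305 and 272 FPKM, so that the non-irradiated pair spanned nearly the whole range of the irradiated libraries. Ssr2 was at 53.0 and 107 against 91.5, 128 and 124 FPKM (0.58, SE 0.32; scaled 0.11, SE 0.15), and Sec11a at 29.0 and 45.0 against 43.5, 53.6 and 53.6 (0.46, SE 0.26; scaled −0.00, SE 0.13), with overlap in both. Srp19 was at 17.3 and 23.5 against 24.7, 26.3 and 30.8 FPKM, without overlap (0.41, SE 0.22; scaled −0.04, SE 0.13). Srp68 was at 30.1 and 44.5 against 33, 37.5 and 35.3 FPKM, and after scaling at 57.0 and 51.3 against 38.4, 37.8 and 36.5, a difference of −0.51 (SE 0.12; limma adjusted p = 0.324). No overlap was seen as deposited for 6 members, all higher, and for 0 lower (34.2% and 1.13% of all genes), and after scaling for 1 higher and 15 lower (11.3% and 16.8%). Of the 84 other pathway genes 0 were called on either scale.

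**Figure D5:**
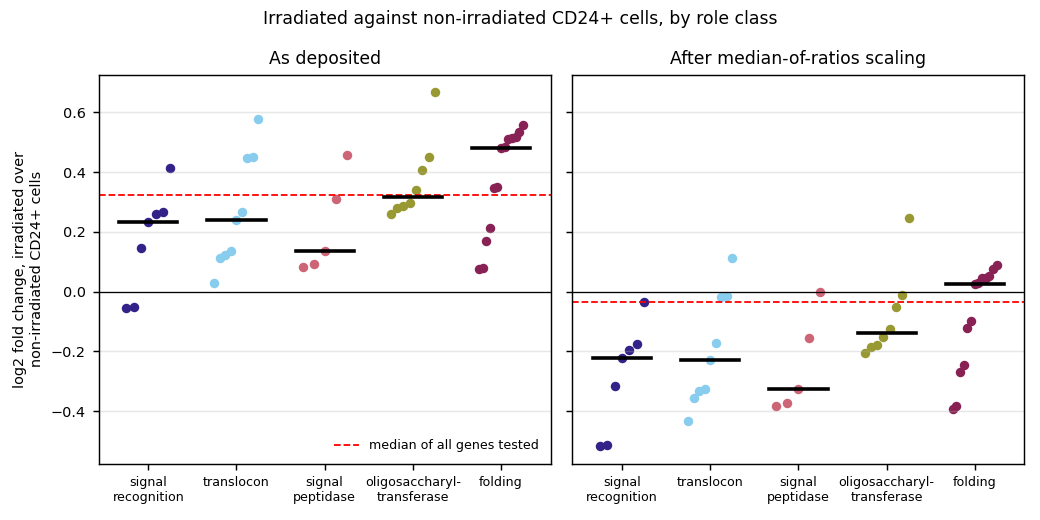
Log2 fold change between irradiated (n = 3) and non-irradiated (n = 2) CD24+ cells for each gene (points, sorted within a class), by role class on the horizontal axis, as deposited (left) and after median-of-ratios scaling (right), with a black line at the class median and a dashed line at the median of all genes. Folding genes have the highest class median in both panels, 0.48 and 0.02, and no gene passed the test.

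Irradiated CD24− cells were last set against non-irradiated CD24+ cells, which differ from them in both gate and irradiation, and this comparison shares libraries with the ones above. As deposited 18 members were called higher and 3 lower, where 65.7% of all genes were higher and 4.99% lower, with a median of 0.53 against 0.88. After scaling 1 was higher and 26 were lower, where 29.6% and 22% of all genes were, with a median of −0.50 against 0.03. Canx was the 1 called higher after scaling, at 1.53 (SE 0.27; limma adjusted p = 0.00046) as deposited and 0.51 (SE 0.11; limma adjusted p = 0.00506) after it. The groups did not overlap for 25 members higher and 6 lower as deposited (70.1% and 6.17% of all genes), and for 3 higher and 28 lower after scaling (37.1% and 31%). Canx levels were 37.9 and 62.3 FPKM in non-irradiated CD24+ cells and 155, 141 and 133 in CD24− cells. The 3 genes called lower as deposited were Sec11c, Spcs3 and Ero1lb, at −0.83 (SE 0.24), −0.65 (SE 0.22) and −0.91 (SE 0.24), and after scaling they were at −1.86, −1.67 and −1.81. Calr and P4hb were called higher as deposited only, at 1.11 (SE 0.34) and 1.13 (SE 0.35), and Hspa5 lower after scaling only, at −0.49 (SE 0.16). Without CD24− replicate 2 the deposited count was 11 higher and 2 lower, where 6636 and 459 of 11103 genes were called. Without non-irradiated replicate 1 the members' median was 0.17 as deposited, against 0.62 over all genes. Without non-irradiated replicate 2 it was 0.82 against 1.14.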

How the data were processed

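RNA was sequenced from 8 sorted cell populations. The authors deposited FPKM per gene and library; the submitters' processing notes name genome build mm9 and the tools StringTie 1.3.4 and TopHat2 2.1.0, and the annotation is not given in the sources used here. The kit named in the labels (TruSeq RNA v2) keeps no strand. Read numbers are not in the table, so depth per library and intervals from it are unknown. FPKM is relative to the size of a library, so it falls for other genes when a few take more. The deposited values do not sum to the same total in each library.

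Genes below 1 FPKM in all but 1 or 0 libraries were dropped, leaving 11190. Values were tested as log2(FPKM + 1), which understates changes of low genes, in 1 limma fit (limma 3.58.1, R 4.3.3, trend) over all 8 libraries, with Benjamini-Hochberg adjustment over all genes and a threshold of 0.05. SE is limma's moderated standard error. The fit was repeated after median-of-ratios scaling over genes above 0 in every library, and was tested on simulated data. Alternatives were other scalings, a pseudocount of 0.1, no filter or one at 5 FPKM, only the groups compared, array weights, robust variances, a replicate block and leaving out each library. Figures were drawn with matplotlib 3.10.9.

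Members and lists were chosen with earlier results of these data known. All members could be named. Values in each irradiated library, and for some also in the non-irradiated ones, are given for the highest member and the largest differences of each class. They are also given for members called between the gates as deposited. Of the members whose call changed with scaling, only a few per comparison, those with the highest mean FPKM, were chosen in this way. In the other pathway lists the called gene with the largest difference was named. Whether replicates are separate mice is not stated in the labels; the p-values reflect sample-to-sample spread only, which may be technical. For irradiated cells, residuals of same-numbered libraries of the 2 gates correlated across genes (0.366, 0.231 and 0.402), so the numbers were treated as pairs, from the data and not from the labels; genes are not independent. Those of irradiated and non-irradiated CD24+ libraries correlated at 0.232 and −0.0499. Libraries of different numbers were not set against each other, so these values alone do not show that the numbers mark pairs.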

Additional observations from a re-analysis of the deposited data

How the results depend on the processing

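The deposited FPKM do not sum to a common total over the libraries, and the scaling decided the direction of many results. As deposited, CD24− against irradiated CD24+ cells gave 9 members higher and 3 lower; median-of-ratios scaling gave 2 and 21, rescaling to a fixed sum (TPM) 39 and 0, and quantile normalization 0 and 37. Over all genes 48.6% were called higher and 7.27% lower as deposited, and 32.4% and 24.4% after median-of-ratios scaling. TPM called 90.3% higher and 2.06% lower, and quantile normalization 25.2% and 30.5%. Against non-irradiated CD24+ cells the main 18 and 3 became 1 and 26, 40 and 0, and 0 and 37. Over all genes the main 65.7% and 4.99% became 29.6% and 22%, 94.1% and 1.66%, and 24.4% and 26.0%. Rescaling to a fixed sum divides each library by its summed FPKM. That sum was 1329221 to 1429911 in irradiated CD24+ libraries and 540467 to 582799 in CD24− libraries. In non-irradiated CD24+ libraries it was 1435059 and 1638347. Why the sums differ was not tested. Between the gates 14 of the 42 members changed sign with median-of-ratios scaling, 9 of them called on neither scale. The log2 values below are of members that changed sign and were called under at least 1 of the settings. They are drawn from the 24 members chosen to have values given by library. With median-of-ratios scaling Srp68 was at −0.51, Srp72 at −0.39 and Sec61b at −0.36. With TPM Srp19 was at 1.23, Srpr at 0.86, Sec62 at 0.83, Ssr4 at 1.15, Spcs3 at 0.45, Sec11c at 0.34 and Ero1lb at 0.036. With quantile normalization Srp68 was at −1.0, Srp72 at −0.86, Sec61b at −1.13, Sec61g at −0.63, Ssr2 at −0.74, Spcs1 at −0.62, Sec11a at −0.45, Rpn2 at −1.10, Dad1 at −0.36, Ostc at −0.53, Stt3b at −0.25, Tusc3 at −0.23, Hspa5 at −1.0, Hsp90b1 at −1.02 and Canx at −0.24.

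Fitting only the groups compared gave 13 higher and 7 lower between the gates as deposited, and 10 and 1 against non-irradiated cells. Over all genes it called 55.1% higher and 8.06% lower between the gates, and 60.4% and 4.18% against non-irradiated cells. Between the gates after scaling it gave 1 higher, where 3579 of 10995 genes were. Array weights gave 15 and 10, and 9 and 0. Of all 11190 genes they called 7040 higher and 1628 lower between the gates, and 5580 and 385 against non-irradiated cells. With the replicate block in the irradiated libraries 13 and 7 were called between the gates as deposited, where 6196 and 979 of 11190 genes were. After scaling 1 was higher, where 3756 genes were. With the replicate block in all 8 libraries the counts between the gates as deposited were 10 and 3, where 5554 and 915 genes were called. Against non-irradiated cells 2 were higher after scaling, where 3322 genes were. Leaving out 1 library gave as deposited 0 to 25 higher for irradiation, 2 to 13 higher and 3 to 7 lower between the gates, and 10 to 28 and 2 to 5 against non-irradiated cells; after scaling it gave 1 to 2 higher and 18 to 22 lower between the gates, and 1 to 2 and 20 to 25 against non-irradiated cells. Without either non-irradiated library that group has a single library, taken to have the spread of the others. Calls over all genes moved as well. Between the gates as deposited, 5439 genes were higher in the main fit. Leaving out 1 irradiated library gave 4355 to 5250. Of the 20 alternatives of the deposited fit between the gates, Canx and Stt3b were called higher in 19 and Sec11c, Spcs3 and Ero1lb lower in 19. The scaled fits with a pseudocount of 0.1, with only the groups compared and with the block in irradiated libraries alone were added after seeing the data. Without counts or read depth, a difference that was not called is not shown to be absent.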
